A study of Mus musculus with 6 samples.

Results

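The mitochondrial genome of the mouse carries 37 genes, and all 37 had a row among the 37477 Ensembl IDs counted in quadriceps muscle. They were chosen by their symbols, which begin with mt-, and not by their values. Of the 37, 13 encode proteins of the respiratory chain (7 of complex I, 1 of complex III, 3 of complex IV and 2 of complex V), 2 encode the ribosomal RNAs of the mitochondrial ribosome and 22 encode transfer RNAs. RNA was sequenced from quadriceps, the thigh muscle that extends the knee, of C57BL/6 mice aged 20 weeks. The 3 WT libraries came from wild-type mice. The 3 KO libraries came from MERKO mice, whose labelled genotype is a knockout (-/-) of estrogen receptor alpha restricted to muscle. No source used here gives the promoter that drove the deletion, the deleted exons or the number of animals behind a library, and the p-values rest on how far these 6 libraries spread, which may be technical.

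Mitochondrial DNA is read by its own RNA polymerase into long transcripts that span most of a strand. Transfer RNAs lie between the protein and ribosomal RNA genes and are cut out of these transcripts, which frees the messenger RNAs on either side. Most messages come from one strand, and only mt-Nd6 and a group of transfer RNAs are encoded on the other. Each protein gene encodes a subunit of a complex that also holds subunits encoded in the nucleus. In muscle these complexes supply most of the ATP for sustained contraction. Neighbouring genes can share bases. In the annotation the last 43 bases of mt-Atp8, in capitals, are also the first 43 of mt-Atp6, both subunits of the ATP synthase (chrM:7766-7969, plus strand, GRCm38):
mt-Atp8: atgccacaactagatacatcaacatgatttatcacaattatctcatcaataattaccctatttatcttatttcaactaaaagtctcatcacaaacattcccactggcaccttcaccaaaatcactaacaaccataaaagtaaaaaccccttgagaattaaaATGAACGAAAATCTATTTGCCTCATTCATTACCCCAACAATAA
The end of mt-Nd4l shares 7 bases, in capitals, with the start of mt-Nd4, another pair of genes for complex I (chrM:10134-10173, plus strand):
mt-Nd4l: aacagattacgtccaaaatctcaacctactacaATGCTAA
Reads from these stretches fit either gene. No source used here says how the counting treated them.

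The end of a message also differs between genes. Of the 13 protein genes 10 ended in a full stop codon and 3 (mt-Co3, mt-Nd4 and mt-Cytb) ended in a lone T, which is known to become a stop codon only when the poly(A) tail is added. The last 20 bases of mt-Co1 (chrM:6853-6872) and mt-Co3 (chrM:9371-9390), the genes with most counts, show both kinds, with the stop bases in capitals:
mt-Co1: cctatgtaaaagtaaaaTAA
mt-Co3: catttattgatgaggatctT

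Total counts ranged from 7388365 to 8560244 per library, with KO replicate 1 deepest. Esr1, the targeted gene, was counted 50, 41 and 44 times in the WT libraries and 22, 16 and 16 times in the KO libraries, in replicate order, and did not overlap between groups. All triplets of values below are in that order. All 12 listed skeletal muscle markers were measured, with a summed level of 67937 to 77223 CPM (the count of a gene scaled by library size) in WT and 73536 to 75024 CPM in KO. Among the listed fibre-type myosins, Myh7 (slow fibres) averaged 21746 CPM in WT and 21018 CPM in KO. Of the fast-fibre myosins, Myh2 averaged 10380 and 9364 CPM, Myh1 3363 and 4329 CPM, and Myh4 303 and 491 CPM. The sum does not show which fibre types were sampled. Among these single myosins the slow-fibre Myh7 was highest and the fast-fibre Myh4 lowest in both groups. Ucp1, the uncoupling protein that defines brown fat, a tissue dense in mitochondria, had 0 to 5 counts. Over all genes 0 of 13848 tested passed an adjusted p of 0.05 in edgeR's quasi-likelihood test (0.0%), 590 (4.26%) had an unadjusted p under 0.05, and DESeq2 called 2. Among the KO libraries, replicates 1 and 3 stood farthest apart of all replicate pairs, with a chi-square of 9.57 per gene against 3.46 to 8.25 for the others. The mitochondrial genes were part of this, so the share of all counts, the fit across genes and the ratios to nuclear subunits are given with and without KO replicate 1.

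Mitochondrial RNA took a steady share of the WT libraries and a widely varying share of the KO libraries. The 37 genes held 6.94%, 7.26% and 7.46% of all counts in WT, against 9.53%, 7.05% and 6.14% in KO. The means were 7.22% ± 0.260 in WT and 7.57% ± 1.75 in KO (SD, n = 3 each). KO replicate 1 lay above and KO replicate 3 below every WT library, so that the groups overlapped and the difference of means was smaller than the KO spread. Leaving out KO replicate 1, which had the highest share, turned the sign. The difference of KO from WT was then -0.627 percentage points, against 0.351 with all libraries. By class the KO mean was then 4.81% for complex IV, 0.396% for complex I, 0.0494% for complex III, 0.178% for complex V, 0.963% for ribosomal RNA and 0.1996% for transfer RNA, each below its WT mean. Both remaining KO libraries were below every WT library for complexes I, III and V, and overlapped WT for the others. Leaving out KO replicate 1, the highest library, can only lower these KO means. Leaving out KO replicate 3, the lowest, can only raise them. Neither sign is read as a result. In whole muscle, the number of mitochondrial genomes, the RNA from each and the part of fibres rich in mitochondria cannot be told apart in this share.

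**Figure D1:**
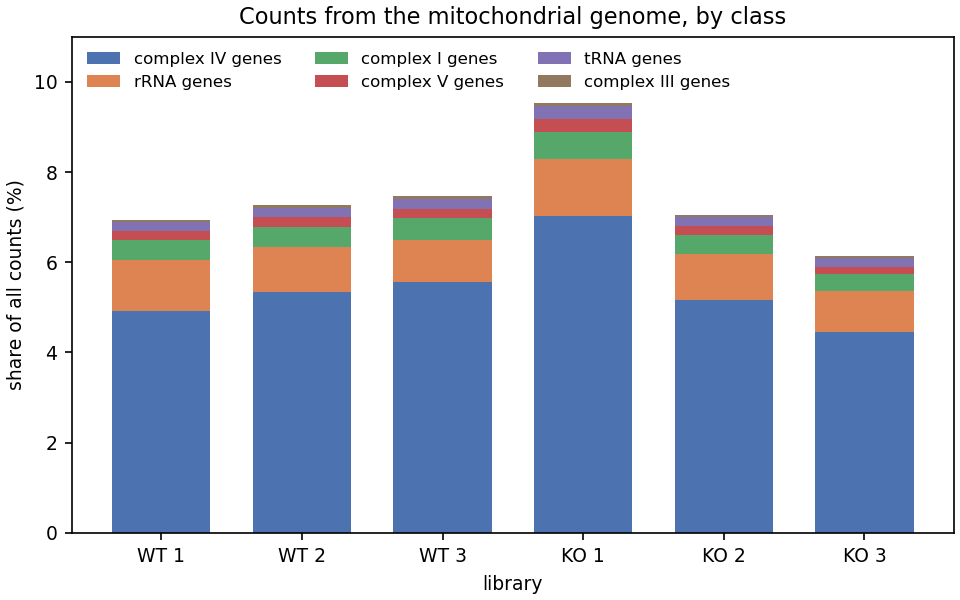
Share of all counts (%) taken by the 37 mitochondrial genes in each of the 6 libraries, stacked by class of gene. The WT bars end between 6.94% and 7.46%, and the KO bars at 9.53%, 7.05% and 6.14%, with genes of complex IV the tallest part in every library.

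Complex IV, cytochrome c oxidase, which passes electrons to oxygen, supplied most of these counts. Its 3 mitochondrial genes held 5.27% ± 0.326 of all counts in WT and 5.55% ± 1.32 in KO (SD, n = 3 each). mt-Co1 (chrM:5328-6872), the subunit that holds the site where oxygen is reduced, was at 34651, 36325 and 37600 CPM in WT, against 49657, 35660 and 29110 CPM in KO. Its WT values lay inside the KO range. KO minus WT came to 0.08 ± 0.19 on the log2 scale (SE). The 95% interval ran from -0.37 to 0.52, and the adjusted p of edgeR's quasi-likelihood test was 0.995. mt-Co2 (chrM:7013-7696), which receives electrons from cytochrome c, was at 2718, 2781 and 2626 CPM in WT, against 3789, 2609 and 2202 CPM in KO. mt-Co3 (chrM:8607-9390), the third core subunit, was at 13526, 14810 and 14196 CPM in WT, against 17701, 13920 and 11834 CPM in KO. In all 3 genes KO replicate 1 was highest of the 6 libraries and KO replicate 3 lowest.

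Complex I takes electrons from NADH, and its 7 mitochondrial genes form the arm that lies in the membrane. They were less abundant, at 0.460% ± 0.0248 of all counts in WT and 0.460% ± 0.115 in KO (SD, n = 3 each). mt-Nd1 (chrM:2751-3707), at the joint between the membrane arm and the rest of the complex, was at 1145, 1200 and 1146 CPM in WT, against 1441, 1091 and 856 CPM in KO. mt-Nd3 (chrM:9459-9806), the most abundant of the 7, was at 1294, 1425 and 1445 CPM in WT, against 1788, 1317 and 1074 CPM in KO. Both genes showed the order seen for complex IV, with KO replicate 1 above and KO replicates 2 or 3 below or within the WT values. Of the subunits related to ion transporters, mt-Nd2 (chrM:3914-4951) was at 689, 700.4 and 753 CPM in WT, against 936, 661 and 516 CPM in KO. mt-Nd4 (chrM:10167-11544) was at 700.4, 670.5 and 730.0 CPM in WT, against 955, 647 and 536 CPM in KO. mt-Nd5 (chrM:11742-13565) was at 492, 450.3 and 469.9 CPM in WT, against 587, 461 and 365 CPM in KO. In these 3 genes too, KO replicate 1 was highest and KO replicate 3 lowest of all libraries. The small subunit gene mt-Nd4l (chrM:9877-10173) was at 80.8, 88.9 and 90.3 CPM in WT and 109, 82.0 and 67.7 CPM in KO. mt-Nd6 (chrM:13552-14070), the 1 protein gene on the minus strand, was at 104, 108 and 116 CPM in WT and 132, 98.8 and 83.7 CPM in KO. No source used here says that strand was kept, and reads of the opposite strand at mt-Nd6 cannot be told apart from its own.

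Complexes III and V gave the same picture. mt-Cytb (chrM:14145-15288), the cytochrome b of complex III and its 1 mitochondrial gene, was at 553, 563 and 599.9 CPM in WT, against 739, 536 and 443 CPM in KO. mt-Atp6 (chrM:7927-8607), the ATP synthase subunit that forms the proton path, was at 1784, 1797 and 1697 CPM in WT, against 2460 (KO replicate 1), 1609 and 1357 CPM in KO. mt-Atp8 (chrM:7766-7969), a small accessory subunit, was at 329.9, 343 and 317 CPM in WT, against 456, 315 and 242 CPM in KO. For all 3 genes KO replicate 1 was above every WT library, and KO replicates 2 and 3 were below every WT library. Each base of mt-Atp8 had 0.626 ± 0.00995 times the counts of a base of mt-Atp6 in WT, beside 0.622 ± 0.0296 in KO (SD, n = 3 each), a difference smaller than the spread.

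The ribosomal RNAs behaved less uniformly. mt-Rnr2 (chrM:1094-2675), the large ribosomal RNA, was at 11320, 9766 and 8915 CPM in WT, against 12529, 9983 and 8556 CPM in KO. mt-Rnr1 (chrM:70-1024), the small ribosomal RNA, was at 533, 295 and 266 CPM in WT, against 396, 303 and 238 CPM in KO. WT replicate 1 was highest for mt-Rnr1, which no other protein or ribosomal RNA gene showed, and its ratio of mt-Rnr2 to mt-Rnr1 counts was 21.2 against 31.6 to 36.0 in the other 5 libraries. The log2 difference of mt-Rnr1 was -0.22 ± 0.37 (SE), and it was 0.155 without WT replicate 1. Lars2, the mitochondrial leucyl-tRNA synthetase of the nuclear genome, named after its values were seen, was also high in that library, at 356 CPM against 64.5 to 181 CPM in the others, and Gm15564 was at 102 against 18.1 to 44.0 CPM. In KO replicate 1, the library richest in mitochondrial RNA, both were lowest. Their part in the mt-Rnr1 values was not tested.

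Across these 15 genes, 0 were called higher and 0 lower in KO (background: 0.0% of all genes tested), and 0 had an unadjusted p under 0.05 (4.26% of all genes). The log2 differences ran from -0.22 for mt-Rnr1 to 0.08 for mt-Co2, and 10 genes were above and 5 below zero. The median over the 23 mitochondrial genes that passed the filter on low counts was 0.01, beside -0.002 over all 13848 genes tested. The intervals were wide: their half-width ran from 0.27 log2 units for mt-Co3 to 1.01 for mt-Rnr1, and 14 of the 15 lay within a 2-fold change either way. In the authors' deposited table every mitochondrial gene with counts had an adjusted p of 1, where 0.0133% of all IDs were under 0.05, and the lowest unadjusted p there, for mt-Tm, was 0.118. Groups did not overlap on the CPM scale for 0 of the 23 genes. Of all genes 4.96% lay above WT and 5.45% below it without overlap, 10.4% together.

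**Figure D2:**
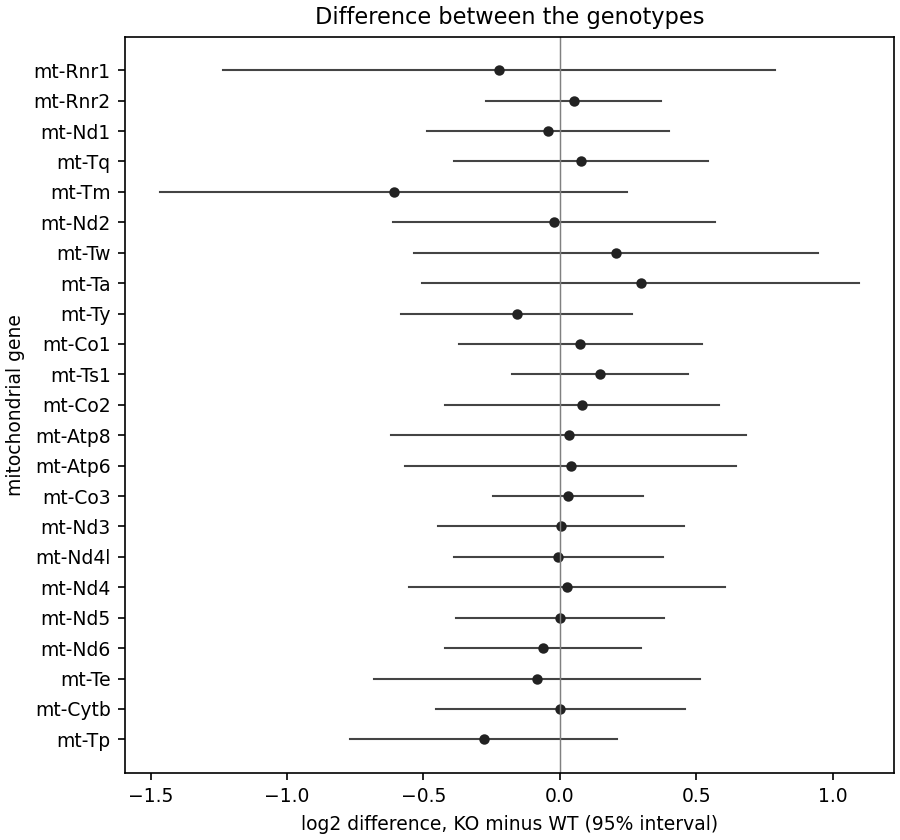
Log2 difference of KO from WT (points) with its 95% interval (lines) for the 23 mitochondrial genes tested, in order along the genome. Every interval includes 0, and the points of the protein genes lie between -0.06 and 0.08.

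What set the KO libraries apart was their spread. KO replicate 1 was the highest of the 6 libraries for 13 of the 13 protein genes, at 1.20 times (mt-Nd6) to 1.40 times (mt-Co2) the WT mean. KO replicate 3 was the lowest for all 13, at 0.722 times (mt-Nd2) to 0.835 times (mt-Co3), and KO replicate 2 was below the WT mean for all 13, at 0.904 to 0.985 times. Over the 23 genes tested, KO replicate 1 was highest for 91.3% and KO replicate 3 lowest for 91.3%, where the same held for 18.3% and 17.4% of all genes. The median SD of log2(CPM + 1) was 0.068 in WT and 0.373 in KO for the 23 genes, beside 0.138 and 0.145 for all genes and 0.078 and 0.095 for the 2073 genes of at least 50 CPM. Members on the same strand share a transcript, and all members share the libraries, so this is 1 pattern and not 23 separate ones. Without KO replicate 1 the log2 difference was below zero for 22 of the 23 genes, and 11 of them had an unadjusted p under 0.05, where 5.59% of the 14122 genes in that fit did (2.58% with KO lower). Over all genes 0 were called there (0.0%). None of the members passed adjustment by edgeR's quasi-likelihood test (0 of 23, lowest adjusted p = 0.491, for mt-Ty). mt-Nd2 had a log2 difference of -0.28 in that fit, mt-Nd6 -0.26 and mt-Co1 -0.16. Leaving out KO replicate 3, the lowest library, instead put 19 of the 23 genes above and 4 below zero. The median log2 difference was then 0.16, against -0.22 without KO replicate 1. Each of these fits leaves out an extreme library, so neither sign is read as a result.

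**Figure D3:**
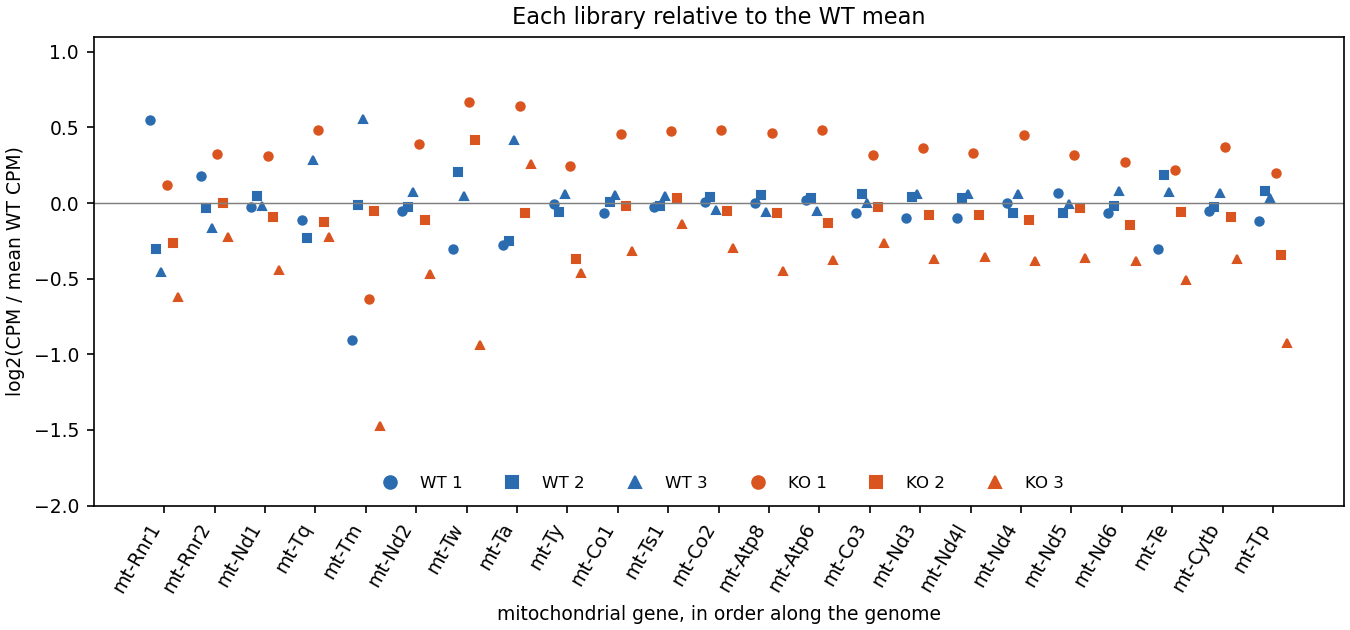
Level of each of the 23 tested mitochondrial genes in each library, as log2 of its CPM over the mean WT CPM; blue marks are WT and orange marks KO, and the shape gives the replicate. KO replicate 1 (orange circles) is on top for 21 of the 23 genes and KO replicate 3 (orange triangles) at the bottom for 21, while the WT marks of most protein genes stay close to 0.

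Other measures of the same libraries were set beside this spread. The summed level of 12 fast-fibre markers was 24243, 24858 and 24565 CPM in KO replicates 1, 2 and 3, and 23117 to 24377 CPM in WT. In that sum Myh2, the myosin of fast oxidative fibres, was at 10352, 10296 and 10493 CPM in WT and 9694, 9360 and 9037 CPM in KO, below WT without overlap. Of the 12 genes 10 were above and 2 below zero with 0 called, and 5 lay above WT without overlap (4.96% of all genes). The 4 with the smallest p, picked for that, were Actn3 at 2.60 times its WT mean, Pvalb at 1.83, Myh1 at 1.29 and Myoz1 at 1.24 times. Tnnt3, with the largest p of the list, was at 1.00 times. The summed level of 9 slow-fibre markers, typical of fibres rich in mitochondria, was 42607, 43043 and 46433 CPM in KO replicates 1, 2 and 3, and 40111 to 47191 CPM in WT. Of these 9 genes 3 were above and 6 below zero with 0 called. Only 1, Pln at 0.741 times its WT mean, lay below WT without overlap (5.45% of all genes), and 0 lay above. Neither sum was highest in KO replicate 1 or lowest in KO replicate 3. Blood markers (7 genes) summed to 814, 1707 and 695 CPM in KO and 1009 to 1730 CPM in WT, low in both KO replicates 1 and 3. The nuclear RNA Malat1 was lowest in KO replicate 1, at 4672 CPM against 4863 to 5463 CPM elsewhere, and so was Neat1, at 1086 against 1157 to 1709 CPM. Rmrp, the RNA of a nuclear RNase, was at 297, 361 and 399 CPM in KO, lowest of all libraries in KO replicate 1 and highest in KO replicate 3, the reverse of the mitochondrial genes. Rn7sk was highest in KO replicate 1, at 7244 CPM against 6842 to 7096 CPM. The part of these measures, and of depth, in the mitochondrial spread was not tested.

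Relative to the mitochondrial total, which takes out the difference in overall amount between libraries, the composition was much steadier. Complex I genes held 6.26%, 6.33% and 6.50% of mitochondrial counts in WT and 6.16%, 6.10% and 5.90% in KO, with all KO values below all WT values. The means were 6.36% ± 0.120 and 6.05% ± 0.139 (SD, n = 3 each), and the KO mean was 0.951 times the WT mean. Counted against protein genes alone, complex I held 7.68% ± 0.0915 in WT and 7.31% ± 0.109 in KO, again without overlap. Complex IV held 72.9% ± 1.93 and 73.2% ± 0.501 of mitochondrial counts, complex V 2.87% ± 0.101 and 2.80% ± 0.188, and ribosomal RNA 14.3% ± 2.01 and 14.2% ± 0.736 in WT and KO (SD, n = 3 each), and these 3 overlapped. Against protein genes alone complex IV no longer overlapped, at 87.9% ± 0.234 in WT and 88.4% ± 0.261 in KO, with KO above. The nearest values, 88.08% and 88.11%, almost touched, and these shares add up to a whole, so that a lower share of complex I leaves a higher one elsewhere. Transfer RNAs held 2.83% ± 0.0732 of mitochondrial counts in WT and 3.01% ± 0.106 in KO, with KO above, while those other than mt-Ts1 held 0.106% ± 0.00607 and 0.0926% ± 0.00209, with KO below (SD, n = 3 each). Among single genes, mt-Nd1 held 1.59%, 1.64% and 1.57% in WT and 1.49%, 1.53% and 1.44% in KO. mt-Nd6 held 0.145%, 0.147% and 0.158% in WT and 0.136%, 0.138% and 0.141% in KO, and mt-Cytb held 0.768%, 0.767% and 0.821% in WT and 0.766%, 0.751% and 0.746% in KO. On this scale KO lay below WT without overlap for 5 of the 23 genes tested (mt-Nd1, mt-Ty, mt-Nd6, mt-Cytb and mt-Tp) and above it for 1 (mt-Ts1), where of all genes set against the same total 1.8% lay below and 0.722% above, 2.52% together. That background is low because most genes do not follow the mitochondrial total, and so nothing particular to the members is read from it. The nearest mt-Cytb values of the groups, 0.767% and 0.766%, almost touched. These shares were not tested, and 3 against 3 libraries could not go below a two-sided exact permutation p of 0.1.

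Compared per length, the genes differed widely in level, also among those encoded on the same strand. Of the genes ranked here only mt-Nd6 lies on the other strand. mt-Co1 led the protein genes with 23425 ± 957 CPM per kilobase in WT and 24688 ± 6793 in KO, followed by mt-Co3 with 18084 ± 819 and 18476 ± 3794 (SD, n = 3 each). mt-Rnr2 came next with 6321 ± 771 CPM per kilobase in WT. mt-Nd3 (3989 ± 235) and mt-Co2 (3960 ± 114) did not differ beyond their spread, and mt-Atp6 (2583 ± 80.3), mt-Atp8 (1617 ± 63.5), mt-Nd1 (1216 ± 32.8) and mt-Nd2 (688 ± 32.8) followed in that order in all 6 libraries. The WT values of mt-Nd4 (508 ± 21.6), mt-Cytb (499.7 ± 21.8) and mt-Rnr1 (382 ± 153) overlapped their neighbours. mt-Nd4l (292 ± 17.3), mt-Nd5 (258 ± 11.6) and mt-Nd6 (211 ± 11.2 CPM per kilobase in WT) were lowest. The large ribosomal RNA had 17.7 ± 4.21 times the counts per base of the small one in WT, and 20.2 ± 1.36 times as many in KO (SD, n = 3 each). The library preparation and the alignment can both change levels between genes, and their part was not tested.

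**Figure D4:**
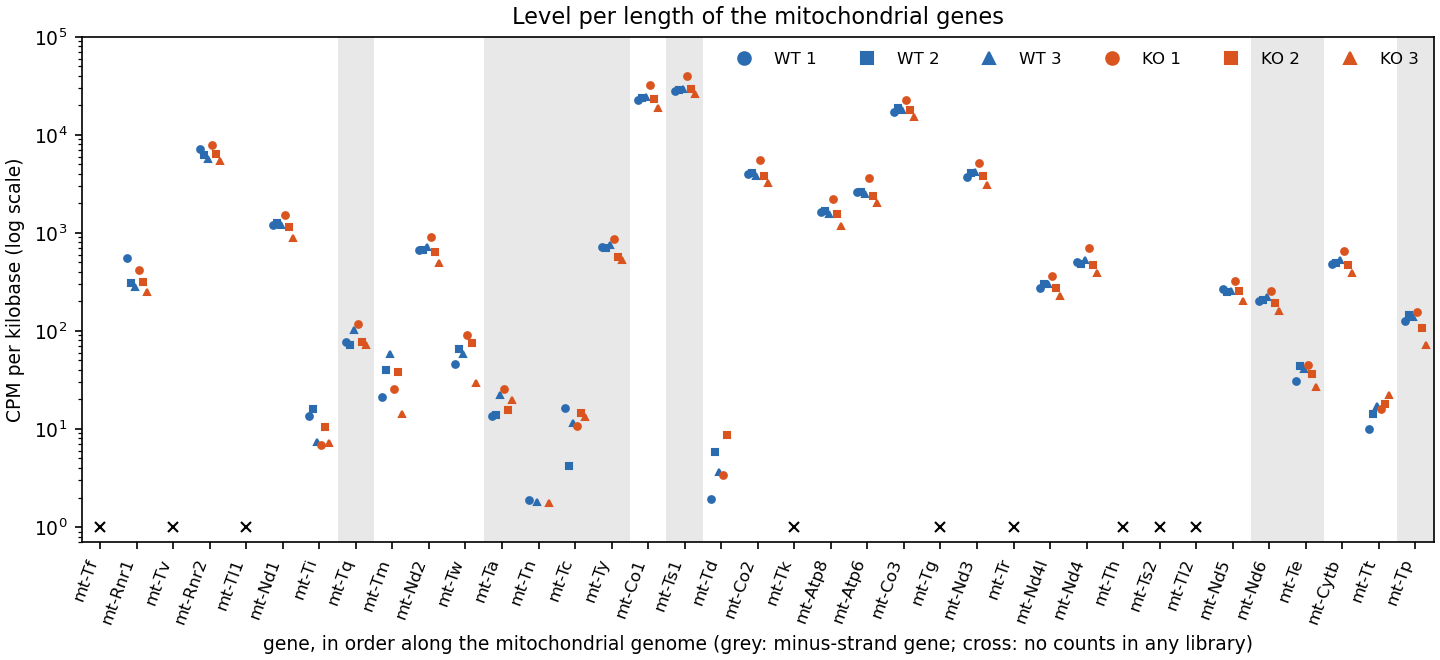
CPM per kilobase (log scale) of the 37 mitochondrial genes in order along the genome, 1 mark per library with a count; grey bands mark genes on the minus strand and crosses the 9 genes without a count in any library. mt-Ts1, mt-Co1 and mt-Co3 are highest, and every cross is a plus-strand transfer RNA.

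The 22 transfer RNA genes differed widely in counts, between the strands and within them. Of the 14 on the plus strand 9 had 0 counts in all 6 libraries (mt-Tf, mt-Tv, mt-Tl1, mt-Tk, mt-Tg, mt-Tr, mt-Th, mt-Ts2 and mt-Tl2), where 0 allows up to 3 counts for each library, a limit of counting error only. The highest count of any plus-strand transfer RNA was 51. All 8 on the minus strand had counts, up to 23300 for mt-Ts1 in KO replicate 1. The lowest of them, mt-Tn, had 0 or 1 per library, within that limit. The minus-strand mt-Tc, at 2 to 8 counts, was below the plus-strand mt-Tw, at 16 to 51. The sequences of 3 minus-strand genes with counts and 2 plus-strand genes without any are shown because these genes have like lengths and opposite results (the capitals mark the 3 bases that mt-Ts1 shares with the end of mt-Co1 on the other strand):
mt-Ts1, chrM:6870-6938, minus strand: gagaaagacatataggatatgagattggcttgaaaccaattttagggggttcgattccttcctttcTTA
mt-Ty, chrM:5260-5326, minus strand: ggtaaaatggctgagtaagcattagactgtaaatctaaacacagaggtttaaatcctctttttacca
mt-Tp, chrM:15356-15422, minus strand: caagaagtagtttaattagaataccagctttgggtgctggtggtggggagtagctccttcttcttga
mt-Tl1, chrM:2676-2750, plus strand: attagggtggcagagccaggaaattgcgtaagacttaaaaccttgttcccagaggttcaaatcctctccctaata
mt-Tk, chrM:7700-7764, plus strand: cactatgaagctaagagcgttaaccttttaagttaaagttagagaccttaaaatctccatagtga

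mt-Ts1, a transfer RNA for serine, held nearly all transfer RNA counts, 96.3% ± 0.126 in WT and 96.9% ± 0.146 in KO (SD, n = 3 each). Its counts were 14531, 14316 and 16143 in WT against 23300, 16829 and 14552 in KO. Per base it had 1.23 ± 0.0267 times the counts of mt-Co1 in WT, and in KO 1.302 ± 0.0746 times (SD, n = 3 each). It lies just beyond the end of mt-Co1 on the other strand. As strand is not stated to have been kept, reads of a mt-Co1 transcript that runs on past its stop codon and reads of the transfer RNA cannot be told apart. Its log2 difference of 0.15 ± 0.14 (SE) did not pass (adjusted p = 0.993 in edgeR's quasi-likelihood test).

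The next transfer RNA, mt-Ty for tyrosine, lies just before the start of mt-Co1 on the minus strand and had 362, 342 and 399 counts in WT and 488, 311 and 285 in KO. mt-Tp (proline) had 63, 71 and 74 counts in WT and 89, 60 and 39 in KO, and mt-Tq (glutamine) had 41, 37 and 57 in WT and 70, 45 and 41 in KO. These 3 were again highest in KO replicate 1. mt-Tw (tryptophan) had 23, 32 and 31 counts in WT and 51, 42 and 16 in KO, and mt-Te (glutamate) 16, 22 and 22 in WT and 26, 21 and 15 in KO. The other 7 with any count had between 0 and 32 per library, and mt-Tm, one of these, was lowest at 8 in KO replicate 3. Of the 22 transfer RNAs 8 passed the filter on low counts and 0 were called, with 4 above and 4 below zero.

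Counts also fell on copies of mitochondrial DNA in the nuclear genome. Whether they came from mitochondrial RNA or from RNA of the copies was not tested. Among annotated nuclear transcripts, 11 genes matched a mitochondrial gene over at least 200 bases at 95% identity or more. Of these, 4 had a row in the table, all pseudogenes, and the other 7 were not analysed here. Gm13340, on chromosome 2 (chr2:22588103-22589647, minus strand), a copy of all of mt-Co1, had 13309, 14053 and 15698 counts in WT and 21498, 15231 and 11505 in KO, 5.15% of those of mt-Co1 on average over the 6 libraries. It differs from mt-Co1 at 37 bases, and the longest run without a difference was 148 bases, so a read within such a run fits both places. The 60 bases with most differences, 4 in capitals, were these (chrM:5787-5846 and chr2:22589129-22589188):
mt-Co1: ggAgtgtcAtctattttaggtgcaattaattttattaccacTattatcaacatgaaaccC
Gm13340: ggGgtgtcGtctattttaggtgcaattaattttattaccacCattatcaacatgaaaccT
Gm13341, next to it, a copy of mt-Co2, had 2623, 2642 and 2667 counts in WT and 4053, 2768 and 2231 in KO. Gm13339, a copy of part of mt-Nd2, had 1138, 1089 and 1374 counts in WT and 1918, 1173 and 868 in KO. In all of these KO replicate 1 was highest and KO replicate 3 lowest, the order of the mitochondrial genes.

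Gm10222, on chromosome 1 (chr1:24612407-24612700, minus strand), matched mt-Nd4l without a difference over 294 bases. It held 919, 948 and 1102 counts in WT and 1385, 974 and 809 in KO, 149% of those of mt-Nd4l on average. The level of mt-Nd4l is therefore uncertain. The same stretch of chromosome 1 holds copies of parts of mt-Co1, mt-Co2, mt-Atp6, mt-Co3, mt-Nd3 and mt-Nd4 at 99.7% identity or more, and no source used here gives the treatment of reads with several matches, so levels of these genes relative to the others carry the same doubt. Adding the 4 copies, an alternative chosen after seeing the data, gave shares of 7.47% ± 0.279 in WT and 7.83% ± 1.83 in KO (SD, n = 3 each), with the same order of libraries. ENSMUSG00000090378, an ID without a symbol that was named after its values were seen, had 20597, 20437 and 20767 counts in WT and 32334, 20830 and 16778 in KO, close to those of mt-Co2 (20291, 20338 and 20719 in WT and 32016, 21594 and 17784 in KO). It could not be placed with the annotation used here.

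The nuclear subunits of the same complexes did not follow the mitochondrial ones. The 36 nuclear genes of complex I summed to 4862, 4983 and 4854 CPM in WT and 5075, 5130 and 5085 CPM in KO, all KO values above WT, while the mitochondrial genes of the complex summed to 4507, 4643 and 4749 CPM in WT, against 5948, 4357 and 3499 CPM in KO. The ratio of mitochondrial to nuclear CPM in complex I was 0.946 ± 0.0285 in WT, beside 0.903 ± 0.246 in KO (SD, n = 3 each), which overlapped. In complex IV the nuclear sum of 14 genes was 2599 ± 47.4 CPM in WT, beside 2783 ± 46.8 in KO, without overlap, and the ratio was 20.4 ± 0.954 and 20.0 ± 5.47. In complex V the ratio was 0.297 ± 0.00735 and 0.292 ± 0.0993, and in complex III it was 0.276 ± 0.0124 and 0.263 ± 0.0785, both with overlap (SD, n = 3 each). The KO libraries lay on both sides of WT. KO replicate 1 was above every WT library, at 1.17, 0.351, 26.0 and 0.405 in complexes I, III, IV and V. KO replicates 2 and 3 were below every WT library. Their ratios were 0.849 and 0.688 in complex I and 0.239 and 0.2001 in complex III. In complex IV they were 18.8 and 15.2, and in complex V 0.254 and 0.218. Leaving out KO replicate 1, the highest library, can only lower the KO mean, and the separation that remains was not tested. The nuclear sum of complex III (9 genes) overlapped, at 2021, 2125 and 2074 CPM in WT and 2105, 2246 and 2213 CPM in KO, and that of complex V (15 genes) lay above WT, at 7023 ± 100.4 and 7374 ± 193 CPM. KO replicate 3 had the lowest mitochondrial sum of all libraries in each complex, while its nuclear sum was above every WT library in each of the 4. No nuclear subunit was called in either direction (0 of 74 tested). Of these subunits 67 were above and 7 below zero (90.5% above, beside 49.3% of all genes tested).

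**Figure D5:**
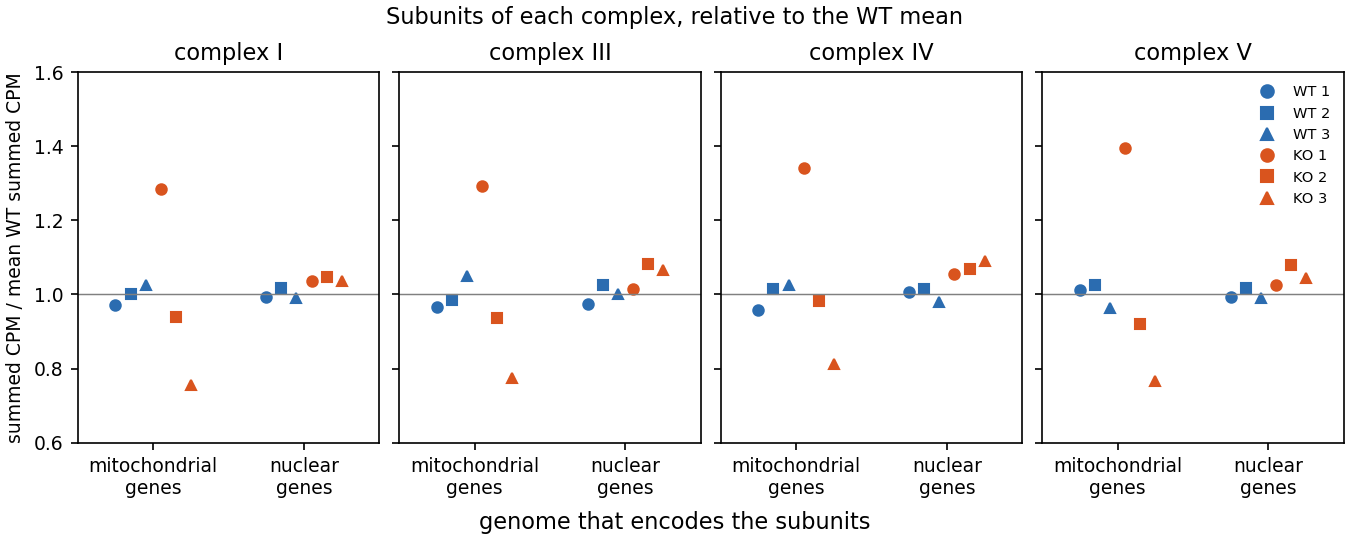
Summed CPM of mitochondrial and of nuclear subunits of each complex, relative to the WT mean, 1 mark per library; blue is WT, orange KO, and the shape gives the replicate. The mitochondrial sums of KO replicates 1 and 3 lie far to either side of 1, and the nuclear sums of all 3 KO libraries lie above 1.

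Nuclear genes that read, cut and protect mitochondrial RNA did not pass either. Of 11 transcription genes 5 were above and 6 below zero in KO, with 0 called and a median log2 difference of -0.07. Polrmt, the mitochondrial RNA polymerase, averaged 17.1 ± 1.42 CPM in WT, beside 15.8 ± 1.28 in KO (SD, n = 3 each). Tfam, which bends the promoter and packages the DNA, was at 42.1 ± 1.36 and 40.1 ± 1.59 CPM, and Tfb2m, which opens the promoter, at 27.4 ± 2.71 and 25.6 ± 2.94 CPM (SD, n = 3 each). Mterf4 (Mterfd2 in the table), which guides a ribosomal RNA methyltransferase, had the smallest p of the list: 12.3, 14.5 and 14.2 CPM in WT and 8.52, 10.3 and 11.5 CPM in KO, all KO values below WT. Its log2 difference was -0.44 ± 0.15 (SE). In edgeR's quasi-likelihood test p was 0.00877 before adjustment, with an adjusted p of 0.989. Mterf2 (-0.21), Tefm, the elongation factor (0.18), and Mterf1a (0.33) had the next smallest p, and none passed.

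Of 18 genes that cut and modify mitochondrial RNA 9 were above and 9 below zero, with 0 called and a median log2 difference of 0.00. Elac2, which cuts the 3′ end of transfer RNAs, averaged 24.7 ± 1.96 CPM in WT, beside 25.7 ± 1.44 in KO (SD, n = 3 each). The smallest p were those of Gtpbp3 (log2 difference 0.33), Trnt1, which adds the CCA end to transfer RNAs (-0.11), Trit1 (-0.23) and Trmt5 (0.20). Of 18 genes of RNA stability and decay 6 were above and 12 below zero, with 0 called and a median of -0.03. Lrpprc, which keeps mitochondrial messages stable, was at 189 ± 8.92 and 187 ± 8.24 CPM, and its partner Slirp at 46.2 ± 3.13 and 45.2 ± 2.33 CPM (SD, n = 3 each). Fastk (0.13), the poly(A) polymerase Mtpap (-0.11), Fastkd2 (0.07) and the exonuclease Rexo2 (-0.09) had the smallest p. Of 22 genes for mitochondrial transfer RNA synthetases and amidation 16 were above and 6 below zero, with 0 called and a median of 0.07. Qrsl1 (-0.21), Tars2 (0.20), Aars2 (0.19) and Rars2 (-0.19) had the smallest p, and the other members were not called. Of the 22 nuclear genes named in these lists, leaving out 1 library moved the log2 difference of 19 by over 1.5 times (all but Fastk, Mterf4 and Rars2).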

How the data were processed

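For 3 WT and 3 KO libraries the authors deposited a table of unnormalized counts per Ensembl gene, and their own log2 fold changes, log2 mean abundances and p-values, deposited under column names of edgeR. The submitters' processing notes name the aligner TopHat 1.3.3, the build mm10 and edgeR. No source used here gives the read counter or its treatment of reads with several matches. Trizol was used for RNA and an Illumina TruSeq kit for libraries, per the labels' protocols.

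Of 37506 rows 29 repeated an ID and were merged (0 of them mitochondrial). All 37 mitochondrial genes matched GENCODE M21 (GRCm38), which gave coordinates and sequences. Counts were filtered with filterByExpr, TMM-scaled and tested with the robust quasi-likelihood F-test of edgeR 4.0.16 in R 4.3.3, on genotype alone, with Benjamini-Hochberg adjustment over 13848 genes and a threshold of 0.05. The SE was the log2 difference over the square root of F. CPM used TMM-scaled library sizes. Shares, ratios and sums were described without a test. Nuclear copies were sought with BLAST 2.17.0 among annotated transcripts, as no genome sequence was used. The fit was tested on simulated data. Replicate pairs differed by more than sampling noise.

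The members and lists were chosen with earlier results of these data known. Named by rule were Esr1, all protein and ribosomal RNA genes, and transfer RNAs with a mean of at least 20 counts. So were the 3 nuclear copies with most reads, and of each nuclear list the 4 genes with the smallest p. Polrmt, Tfam, Tfb2m, Lrpprc, Slirp and Elac2 were always named. Outside the rule were Gm10222, Lars2, Gm15564, an ID without a symbol, mt-Tm and the transfer RNAs without counts. Single members of the marker and RNA lists were also outside it, some named after their values were seen. Alternatives were other scalings and filters, DESeq2 1.42.0, limma 3.58.1 (voom), a replicate block and leaving out each library. Table symbols were matched to current ones by RefSeq synonyms.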

Additional observations from a re-analysis of the deposited data

How the results depend on the processing

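Under 15 alternatives (9 settings and 6 fits that each left out 1 library) 0 mitochondrial genes and 0 nuclear genes of the 4 serving lists were called. Over all genes the count was 19 without the filter on low counts, 2 in DESeq2, 0 to 3 when 1 library was left out (3 without WT replicate 1) and 0 in the other settings. The median log2 difference of the mitochondrial genes ran from -0.22 (without KO replicate 1) to 0.16.

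Signs of small differences turned. In limma voom and with the replicate block the log2 differences were -0.0148 and -0.0139 for mt-Atp8, -0.0057 and -0.0064 for mt-Atp6, -0.0250 and -0.0256 for mt-Nd3, -0.0160 and -0.0157 for mt-Nd4, -0.0242 and -0.0236 for mt-Nd5, and -0.0291 and -0.0288 for mt-Cytb. That of mt-Nd4l was 0.0029 with upper-quartile scaling, 0.0055 without scaling and 0.0058 without the filter. The cause was not tested.

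When 1 library was left out, log2 differences ran from -0.43 to 0.155 for mt-Rnr1, -0.11 to 0.17 for mt-Rnr2, -0.26 to 0.12 for mt-Nd1, -0.28 to 0.16 for mt-Nd2, -0.22 to 0.16 for mt-Nd3, -0.24 to 0.19 for mt-Nd4, -0.21 to 0.14 for mt-Nd4l, -0.19 to 0.16 for mt-Nd5 and -0.26 to 0.0771 for mt-Nd6. They ran from -0.22 to 0.16 for mt-Cytb, -0.16 to 0.24 for mt-Co1, -0.17 to 0.24 for mt-Co2, -0.14 to 0.16 for mt-Co3, -0.25 to 0.21 for mt-Atp6 and -0.25 to 0.23 for mt-Atp8. For transfer RNAs they ran from -0.0491 to 0.27 for mt-Ts1, -0.18 to 0.25 for mt-Tq, -0.10 to 0.55 for mt-Tw and -0.27 to 0.0859 for mt-Te. Signs held for mt-Ty (-0.42 to -0.0274) and mt-Tp (-0.60 to -0.0434). For nuclear genes they ran from -0.0032 to 0.10 for Elac2, -0.0018 to 0.12 for Fastkd2, -0.0816 to 0.0156 for Slirp and -0.0564 to 0.0047 for Lrpprc. Without a turn of sign they ran from 0.16 (without KO replicate 3) to 0.48 for Gtpbp3, -0.39 to -0.0494 (without WT replicate 3) for Trit1, 0.0468 (without WT replicate 2) to 0.40 for Trmt5, 0.0495 (without WT replicate 3) to 0.28 for Tars2, 0.0534 (without WT replicate 2) to 0.29 for Aars2 and -0.30 to -0.0791 (without KO replicate 1) for Qrsl1. For the protein genes the lowest value was without KO replicate 1 and the highest without KO replicate 3.

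The correlations of same-numbered libraries' deviations from their group means were -0.0146, 0.159 and 0.0377. Over all pairs of a WT and a KO library they ran from -0.170 to 0.159. With 3 libraries per group these values cannot settle whether the numbers pair the libraries. With the replicate block 0 genes were called. The intervals of the protein and ribosomal RNA genes had unadjusted half-widths from 0.27 (mt-Co3) to 1.01 log2 units (mt-Rnr1). Of the transfer RNAs 14 were not tested for want of counts.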
